A study of Homo sapiens with 8 samples.

Results

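DNA replication genes were followed by bulk RNA sequencing in MRC5, a fibroblast line from human lung. The group holds 40 genes, listed by symbol for their roles in origin licensing, unwinding, DNA synthesis, nucleotide supply and the G1/S transition, with no threshold on measured values. The list was written with earlier results of these data known. Its shares set beside those of all genes are therefore descriptive and not an independent test. All 40 were found among the 60666 gene IDs of the table, and all 40 were among the 13493 genes whose mean level allowed a test. The 4 groups, of 2 libraries each, were cells with a hairpin against MTHFD2 (shMTHFD2) and TGF-β1, cells with a control hairpin (shMock) and TGF-β1, shMTHFD2 cells without TGF-β1 (shMTHFD2 control), and shMock cells without TGF-β1 (shMock control). MTHFD2 works in mitochondria as part of the folate cycle, whose one-carbon units feed purine and thymidylate synthesis. TGF-β1 is a cytokine that turns fibroblasts into myofibroblasts and slows the division of many cell types. The labels give 4 ng of TGF-β1, with no volume, for 24 h. They carry that text on the control samples too, and the genotype field of 3 shMTHFD2 samples names other MTHFD symbols in a numbered run, so groups were taken from the titles. The extraction text also names another cell line and another hairpin. With 1 hairpin, no rescue and no untransduced line, the loss of MTHFD2 and other differences between the lines cannot be told apart. The labels do not say that replicates came from separate cultures, and p-values here reflect library-to-library spread that may be technical.

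In a dividing cell, ORC, CDC6 and CDT1 load rings of MCM2 to MCM7 onto origins in G1, and CDC45 and the GINS proteins join the ring at the start of S phase to form the working helicase. Primase and polymerase α start each strand, polymerases δ and ε extend it with the sliding clamp PCNA, and FEN1 and LIG1 finish the lagging strand. Many of these genes are transcribed in late G1 under E2F factors, which the RB family restrains, and their mRNAs are low in resting cells.

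The knockdown was seen in every library labelled for it. MTHFD2 stood at 93.6 and 91.7 CPM (counts scaled to a common library size) in shMTHFD2 TGF-β1 libraries, against 256 and 257 CPM in shMock TGF-β1 libraries. Without TGF-β1 it stood at 14.9 and 18.7 CPM in shMTHFD2 libraries and at 58.7 and 57.0 CPM in shMock libraries. By edgeR it fell with the knockdown, with log2 fold changes of -1.47 (SE 0.09, adjusted p = 8.7e-07) under TGF-β1 and -1.79 (SE 0.10, adjusted p = 3.5e-07) in its absence, and exons of genes on the opposite strand overlap it. Library totals ran from 18162738 to 22221927 counts, so 3 counts correspond to 0.135 to 0.165 CPM. All 9 fibroblast markers were tested, with a summed level of 30500 to 54200 CPM. The 9 epithelial markers summed to 0.361 to 2.35 CPM, with KRT5, KRT19, SFTPC and NKX2-1 at 0 in all libraries, the 5 endothelial markers to 0.964 to 2.31 CPM with PECAM1, CDH5, CLDN5 and ERG at 0, and the 6 immune markers to 0.0532 to 1.28 CPM with CD3E at 0. Of 5 smooth muscle and pericyte markers, DES was at 0, and the sum was 225 to 233 CPM in shMTHFD2 TGF-β1, 300 to 302 CPM in shMock TGF-β1, 171 to 190 CPM in shMTHFD2 control and 243 to 260 CPM in shMock control libraries.

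The promoters of 5 of the genes are printed because the genes carry the main contrasts below: MCM6, CDC45, CDC6 and RRM2 were lower in several comparisons, and UNG was higher in one comparison and lower in another. Each is the 250 bases before the RefSeq gene start (GRCh38.p14), on the gene's strand, 5′ to 3′. Capitals mark matches, on either strand, to E2F letters (TTTCCCGC, TTTGGCGC, TTTCGCGC or TTTGCCGC), to the shorter core GGCGGGA, which was added after a first search and can overlap the longer form, or to CCAAT, the box read by NF-Y. MCM6 lies at chr2:135876444-135876693 (minus strand), CDC45 at chr22:19479670-19479919 (plus), CDC6 at chr17:40287629-40287878 (plus), RRM2 at chr2:10122489-10122738 (plus) and UNG at chr12:109097347-109097596 (plus).
MCM6: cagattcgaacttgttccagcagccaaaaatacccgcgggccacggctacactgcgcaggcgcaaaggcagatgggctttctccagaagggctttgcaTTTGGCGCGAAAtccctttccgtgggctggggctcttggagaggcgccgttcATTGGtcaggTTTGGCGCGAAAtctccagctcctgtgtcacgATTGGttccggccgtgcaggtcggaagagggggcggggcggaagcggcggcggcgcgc
CDC45: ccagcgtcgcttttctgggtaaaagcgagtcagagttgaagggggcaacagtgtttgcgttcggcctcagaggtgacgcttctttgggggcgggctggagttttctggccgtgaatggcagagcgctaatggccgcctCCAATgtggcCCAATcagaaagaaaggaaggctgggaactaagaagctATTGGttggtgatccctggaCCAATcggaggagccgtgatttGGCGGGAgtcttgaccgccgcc
CDC6: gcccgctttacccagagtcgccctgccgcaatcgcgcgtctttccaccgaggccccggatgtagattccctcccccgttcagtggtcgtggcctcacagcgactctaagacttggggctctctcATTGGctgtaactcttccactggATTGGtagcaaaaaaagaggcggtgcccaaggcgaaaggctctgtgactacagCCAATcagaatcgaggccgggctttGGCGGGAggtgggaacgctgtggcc
RRM2: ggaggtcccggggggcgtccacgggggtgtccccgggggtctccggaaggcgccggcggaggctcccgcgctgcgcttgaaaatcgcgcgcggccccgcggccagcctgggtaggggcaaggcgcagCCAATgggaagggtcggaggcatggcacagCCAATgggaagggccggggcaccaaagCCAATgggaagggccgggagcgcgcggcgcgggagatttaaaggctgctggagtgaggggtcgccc
UNG: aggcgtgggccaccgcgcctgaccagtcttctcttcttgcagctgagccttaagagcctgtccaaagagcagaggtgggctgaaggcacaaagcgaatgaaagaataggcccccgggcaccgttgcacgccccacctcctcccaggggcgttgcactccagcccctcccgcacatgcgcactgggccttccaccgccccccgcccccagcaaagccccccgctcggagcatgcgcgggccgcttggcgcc
The MCM6 window held 4 E2F matches, which form overlapping pairs on opposite strands, and 2 CCAAT matches. CDC45 held 1 core match and 4 CCAAT matches, CDC6 held 1 core match and 3 CCAAT matches, and RRM2 held 3 CCAAT matches and none of the E2F letters. The UNG and TK1 windows held 0 matches to any of these.

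RefSeq promoters were at hand for 34 of the 40 genes; MCM4, MCM5, GINS4, RPA2, CCNE2 and FAM111B are named only. The long E2F letters were found in 13 of the 34 windows (38.2%), against 4.5% of the 10300 promoters of tested genes and 2.8% of all 27305. The core was found in 16 (47.1%), against 22.7% and 13.6%, and either form in 22 (64.7%), against 25.3% and 15.3%. CCAAT stood in 20 windows (58.8%), against 35.1% and 33.0%. The letters TTTGAA or TTCGAA, known as CHR elements of mitotic genes, stood in 2 (5.9%), against 9.6% and 14.6%. Of the 11 matched genes lower with the knockdown in either condition, 8 held an E2F form and 9 held CCAAT. These are matches of letters in a fixed window and not sites shown to be bound.

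**Figure D1:**
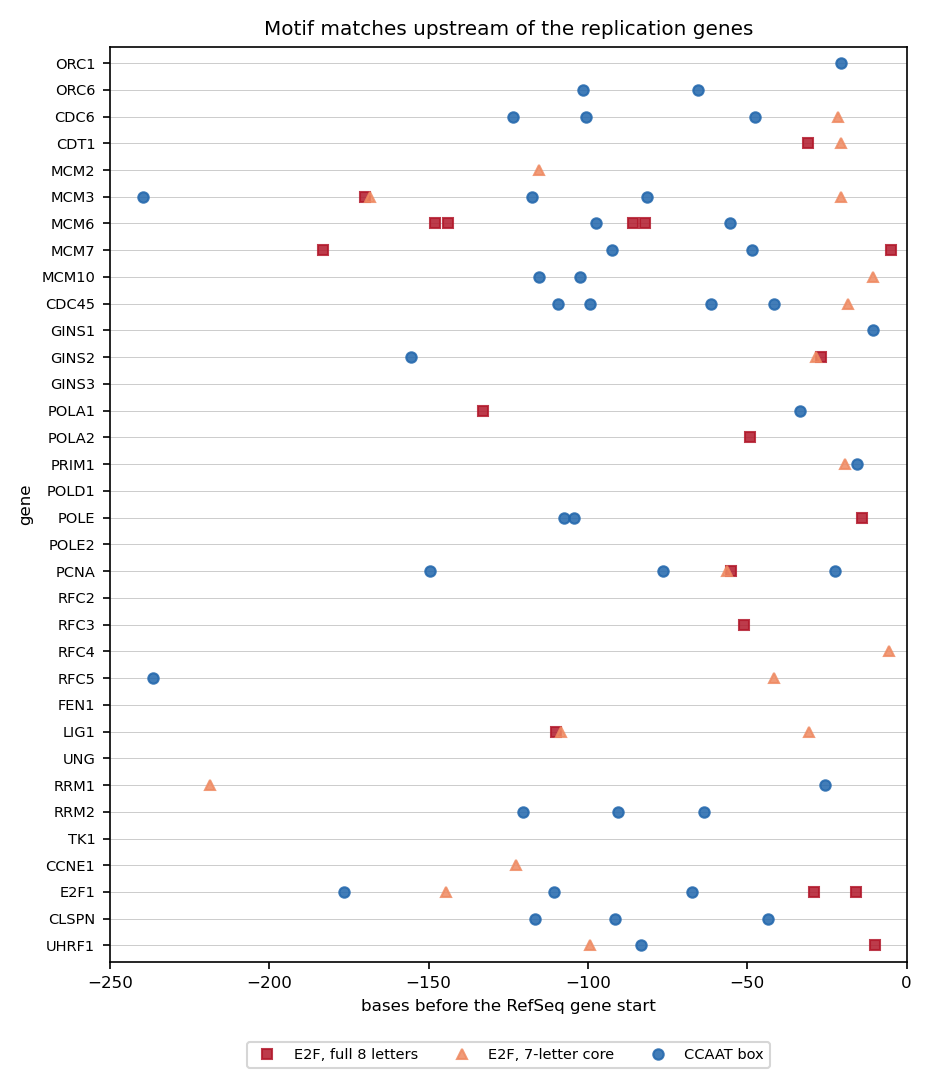
Position of each motif match (horizontal axis, bases before the RefSeq gene start) in the promoters of the 34 replication genes with a RefSeq window (rows, in order of role), with squares for the long E2F letters, triangles for the shorter core and circles for CCAAT. Squares stand in 13 rows, triangles in 16 and circles in 20; the rows of GINS3, POLD1, POLE2, RFC2, FEN1, UNG and TK1 are empty.

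Per kilobase of exon, the most abundant of the 40 mRNAs was PCNA, the sliding clamp, at 42.4 CPM per kb on average over the 8 libraries. RRM1, the large subunit of ribonucleotide reductase, followed at 17.3, the helicase subunit MCM7 at 15.0 and the uracil glycosylase UNG at 10.7 CPM per kb. Exons of other genes overlap RRM1 and CCNE2 on the opposite strand and POLA2 and POLD1 on the same strand. The lowest were the helicase factor MCM10 at 0.342 and cyclin E2 (CCNE2) at 0.324 CPM per kb. Summed over all 40 genes, the level was 544 and 555 CPM in shMTHFD2 TGF-β1 libraries, 602 and 578 CPM in shMock TGF-β1, 618 and 603 CPM in shMTHFD2 control, and 720 and 763 CPM in shMock control. On this scale the ranges of the 4 groups did not overlap, although shMTHFD2 control replicate 2 stood within 1 CPM of shMock TGF-β1 replicate 1. As a share of unscaled library totals, the 40 genes held 0.0538% and 0.0547% in shMTHFD2 TGF-β1 and 0.0551% and 0.0544% in shMock TGF-β1. Those 2 groups therefore overlapped without the scaling. In these bulk samples, fewer cells in S phase and less RNA per cell cannot be told apart.

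Most of the genes had their lowest group mean in shMTHFD2 TGF-β1, and most had their highest in shMock control. The group mean was lowest in shMTHFD2 TGF-β1 for 29 of the 40 (72.5%, against 21.4% of all tested genes), in shMTHFD2 control for 6, in shMock TGF-β1 for 5 and in shMock control for 0. The highest mean was in shMock control for 35 of the 40 (87.5%, against 27.4% of all tested genes). Relative to shMock control, the median gene of the 40 stood at -0.63 and -0.64 (log2 difference) in the shMTHFD2 TGF-β1 libraries, at -0.28 and -0.51 in shMock TGF-β1, and at -0.41 and -0.35 in shMTHFD2 control. The shMock TGF-β1 and shMTHFD2 control libraries overlapped by this measure, so it gave them no order.

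**Figure D2:**
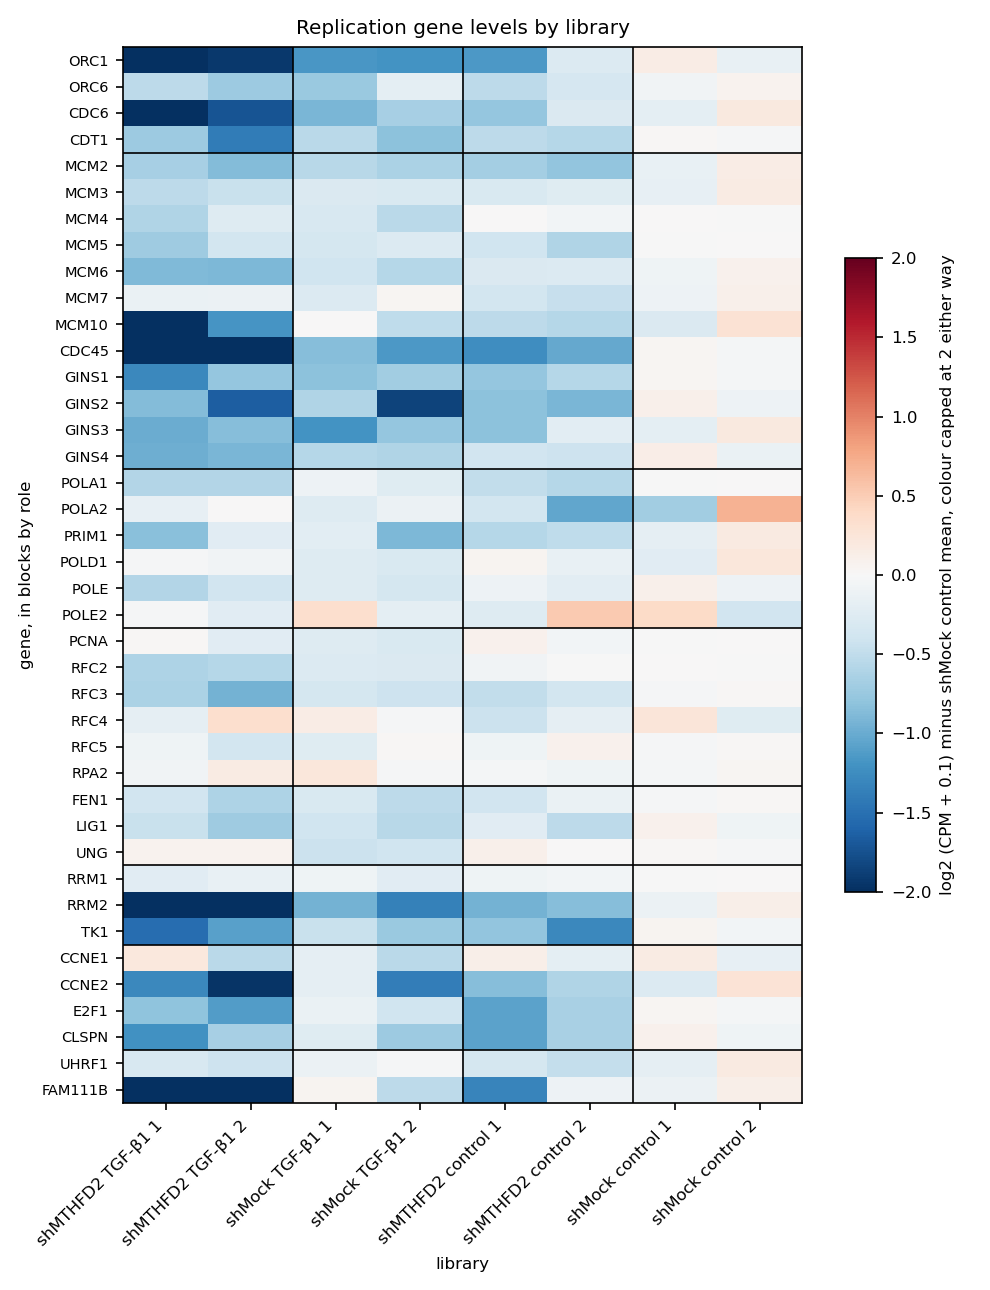
Level of each of the 40 genes (rows, in blocks by role) in each of the 8 libraries (columns), as log2 of CPM plus 0.1 minus the mean of the shMock control libraries, with colour capped at 2 either way. Blue is lower and red is higher than shMock control. The shMTHFD2 TGF-β1 columns are the bluest, with medians of -0.63 and -0.64. UNG is pale blue in the shMock TGF-β1 columns, at -0.435 and -0.406.

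With TGF-β1 in both arms, 7 of the 40 genes were lower in shMTHFD2 than in shMock cells and 1 was higher (edgeR, adjusted p under 0.05 over all 13493 genes, the rule for every call here). Among all tested genes 13.1% were called, 8.23% lower and 4.83% higher, so 17.5% of the replication genes fell against 8.23% overall. For 32 of the 40 the log2 fold change was below 0, against 49.0% of all genes, and its median was -0.20, against 0.01 over all genes; with library totals as the scale the medians were -0.11 and 0.10. At an unadjusted p under 0.05 the 40 genes held 11 (27.5%), close to the 27.1% of all genes. Libraries of the 2 groups did not overlap for 18 genes in the lower direction (27.4% of all genes) and for 3 in the higher (26.6%).

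Among the genes that fell, the firmest call was that of RRM2, a nucleotide supply gene. RRM2, the small subunit of ribonucleotide reductase, which cells make in S phase, stood at 3.97 and 5.73 CPM in shMTHFD2 TGF-β1 libraries, against 12.2 and 9.16 CPM in shMock TGF-β1 libraries. The groups did not overlap, and RRM2 fell 2.20-fold (log2 fold change -1.14, SE 0.20, adjusted p = 0.00199). A gene on the same strand shares 1077 bases of exon with RRM2. TK1, the thymidine kinase of dividing cells, had 5.50 and 7.46 CPM in shMTHFD2 and 11.8 and 9.51 CPM in shMock, and fell 1.64-fold (-0.71, SE 0.21, adjusted p = 0.0381). RRM1, the partner of RRM2, was not called and stood at 66.7 and 70.0 CPM in shMTHFD2, against 73.2 and 66.6 CPM in shMock.

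Of the 12 helicase genes, 3 fell. CDC45, which joins the MCM ring when an origin fires, had 1.17 and 0.913 CPM in shMTHFD2 and 2.98 and 2.41 CPM in shMock (log2 fold change -1.36, SE 0.35, adjusted p = 0.0189). MCM6, one of the ring subunits, had 18.3 and 18.1 CPM in shMTHFD2 and 25.6 and 22.7 CPM in shMock (-0.41, SE 0.12, adjusted p = 0.0316). MCM10, which acts as the helicase starts to move, had 0.357 and 1.12 CPM in shMTHFD2, or 7 and 22 counts, and 2.66 and 1.83 CPM in shMock, or 50 and 32 counts (-1.60, SE 0.50, adjusted p = 0.0465). Both libraries of each gene were lower in shMTHFD2, and the size for MCM10 rests on few counts. Of the 4 licensing genes CDC6, the ring loader, fell: it had 2.24 and 2.74 CPM in shMTHFD2, against 4.89 and 5.84 CPM in shMock (-1.10, SE 0.27, adjusted p = 0.0146). ORC6, the licensing gene with the highest level per kilobase, was not called, with 5.45 and 4.72 CPM in shMTHFD2 and 4.68 and 6.87 CPM in shMock.

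The largest fold of the 40 belonged to FAM111B, a protease gene. It had 0.561 and 0.812 CPM in shMTHFD2 (11 and 16 counts), against 3.72 and 2.46 CPM in shMock (70 and 43 counts), a 4.48-fold fall (log2 fold change -2.16, SE 0.48, adjusted p = 0.00802). UNG, which removes uracil from DNA, was the gene that rose: it had 30.0 CPM in both shMTHFD2 TGF-β1 libraries, against 21.2 and 21.6 CPM in shMock TGF-β1 libraries (0.49, SE 0.11, adjusted p = 0.00745). None of the 6 polymerase and primase genes, the 6 clamp, loader and RPA genes and the 4 G1/S genes was called by edgeR in the fit reported. With GC and length offsets E2F1 was called lower. In those blocks POLD1, the catalytic subunit of polymerase δ, stood at 17.5 and 16.9 CPM in shMTHFD2 and 14.9 and 14.4 CPM in shMock. PCNA stood at 67.3 and 56.3 CPM in shMTHFD2 and 55.5 and 53.8 CPM in shMock, and E2F1 at 4.18 and 3.35 CPM in shMTHFD2 and 6.70 and 5.56 CPM in shMock.

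Single libraries decided several of these calls. Without shMock TGF-β1 replicate 1 the lower calls were CDC6 and RRM2, 2 genes in all, and without shMTHFD2 TGF-β1 replicate 1 they were CDC45 and RRM2, again 2. RRM2 and UNG kept their calls whichever of the 8 libraries was left out, with adjusted p up to 0.0340 and 0.0471. The highest adjusted p over those 8 fits was 0.0757 for FAM111B, 0.0916 for CDC6, 0.120 for CDC45, 0.213 for MCM6, 0.246 for TK1 and 0.265 for MCM10, whose log2 fold change ranged from -2.64 to -1.02. DESeq2 called 4 genes lower, library totals as the scale gave 4, and a fit of the 2 groups alone gave 3.

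**Figure D3:**
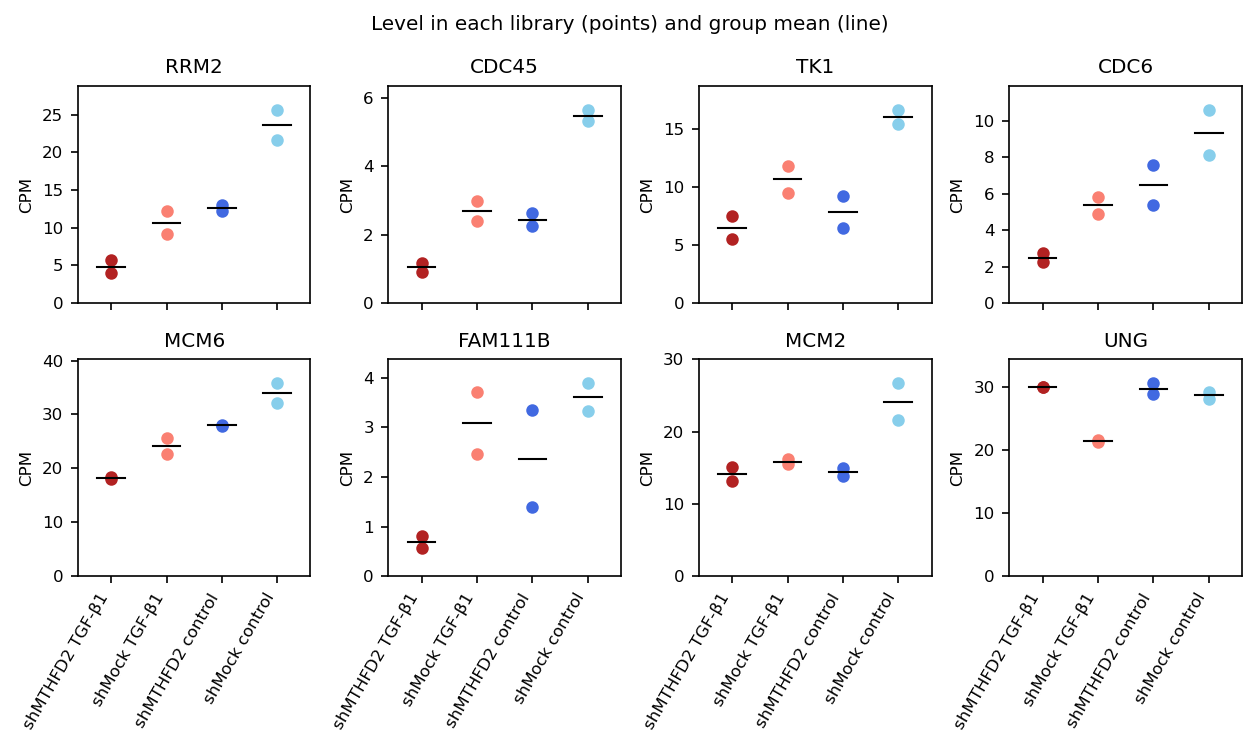
Level (CPM, vertical axis from 0) of 8 of the genes in each library (points), with the group mean (line), for shMTHFD2 TGF-β1, shMock TGF-β1, shMTHFD2 control and shMock control from left to right. RRM2, CDC45 and CDC6 are lowest in shMTHFD2 TGF-β1 and highest in shMock control, MCM2 is high in shMock control alone, and UNG is low in shMock TGF-β1 alone, at 21.2 and 21.6 CPM.

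Without TGF-β1, 9 of the 40 genes were lower in shMTHFD2 than in shMock cells and 0 were higher by edgeR. Among all tested genes 11.4% were called, 8.19% lower and 3.25% higher, so the 22.5% of replication genes that fell stands against 8.19%. For 37 of the 40 the log2 fold change was below 0 (52.1% of all genes), with a median of -0.44 against -0.01. At an unadjusted p under 0.05 there were 17 (42.5%, against 25.0% of all genes). Libraries did not overlap for 28 genes in the lower direction (30.1% of all genes) and for 0 in the higher (25.2%).

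In this condition 4 of the 12 helicase genes fell, 3 of them ring subunits. MCM2 had 15.0 and 13.9 CPM in shMTHFD2 control libraries, against 21.6 and 26.7 CPM in shMock control libraries (log2 fold change -0.74, SE 0.14, adjusted p = 0.00328). MCM5 had 24.0 and 20.9 CPM in shMTHFD2 and 31.7 CPM in both shMock libraries (-0.50, SE 0.13, adjusted p = 0.0199). MCM7 had 57.0 and 53.0 CPM in shMTHFD2, against 68.0 and 79.0 CPM in shMock (-0.42, SE 0.11, adjusted p = 0.0199). These groups did not overlap for any of the 3, and genes on the opposite strand share exon sequence with MCM2 and MCM7. CDC45 had 2.26 and 2.63 CPM in shMTHFD2 and 5.65 and 5.32 CPM in shMock, a 2.24-fold fall (-1.16, SE 0.31, adjusted p = 0.0241). MCM6 was not called here, with 27.8 and 28.1 CPM in shMTHFD2 and 32.1 and 35.8 CPM in shMock.

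RRM2 and TK1 fell again. RRM2 had 12.2 and 13.0 CPM in shMTHFD2 control libraries and 21.6 and 25.6 CPM in shMock control libraries (log2 fold change -0.91, SE 0.18, adjusted p = 0.00400). TK1 had 9.20 and 6.45 CPM in shMTHFD2 and 16.6 and 15.4 CPM in shMock (-1.03, SE 0.20, adjusted p = 0.00400). Of the G1/S genes, 2 of 4 fell. E2F1, the transcription factor that drives many of these genes, had 3.47 and 4.64 CPM in shMTHFD2, against 7.54 and 7.19 CPM in shMock (-0.86, SE 0.24, adjusted p = 0.0340). CLSPN, the claspin gene of the fork checkpoint, had 3.79 and 5.11 CPM in shMTHFD2 and 8.57 and 7.53 CPM in shMock (-0.86, SE 0.26, adjusted p = 0.0483), and exons of a gene on the opposite strand overlap it. UHRF1, which guides maintenance DNA methylation to new strands, had 22.7 and 20.9 CPM in shMTHFD2 and 25.6 and 33.1 CPM in shMock (-0.43, SE 0.13, adjusted p = 0.0462).

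The other blocks held no call in the fit reported, while POLA2 was called lower with no filter. None of the 4 licensing genes passed edgeR's threshold. All 4 had groups that did not overlap in the lower direction, as did 30.1% of all tested genes. CDC6 stood at 5.41 and 7.58 CPM in shMTHFD2 and 8.12 and 10.6 CPM in shMock. UNG stood at 30.6 and 28.9 CPM in shMTHFD2 and 29.2 and 28.1 CPM in shMock. FAM111B stood at 1.39 and 3.35 CPM in shMTHFD2 and 3.32 and 3.89 CPM in shMock, so its groups overlapped. POLA2, the second subunit of polymerase α, had 3.50 and 9.25 CPM in the shMock control replicates, the widest gap between replicates relative to level among the polymerase genes.

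No call in this comparison was kept in all 8 fits that left out 1 library. TK1 was the 1 lower call without shMock control replicate 2, MCM2 and RRM2 were the 2 without shMTHFD2 control replicate 2, and 5 genes (MCM2, MCM5, MCM7, RRM2 and TK1) stayed without shMTHFD2 control replicate 1. The highest adjusted p over those fits was 0.0621 for RRM2, 0.0708 for TK1, 0.0769 for MCM2, 0.139 for CDC45, 0.194 for MCM5, 0.210 for E2F1, 0.245 for MCM7, 0.252 for CLSPN and 0.520 for UHRF1. The log2 fold change of each stayed below 0 throughout, and library totals as the scale gave 5 lower calls.

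The 2 knockdown comparisons share no library. CDC45, RRM2 and TK1 fell in both, which is 42.9% of the 7 genes lower with TGF-β1 and 33.3% of the 9 lower without it. The log2 fold change was below 0 in both for 31 of the 40 genes (77.5%, against 32.3% of all genes). Across the 40 genes the 2 sets of fold changes correlated at Pearson's r 0.55 and Spearman's rho 0.59, against 0.33 and 0.41 across all genes; genes are not independent replicates.

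**Figure D4:**
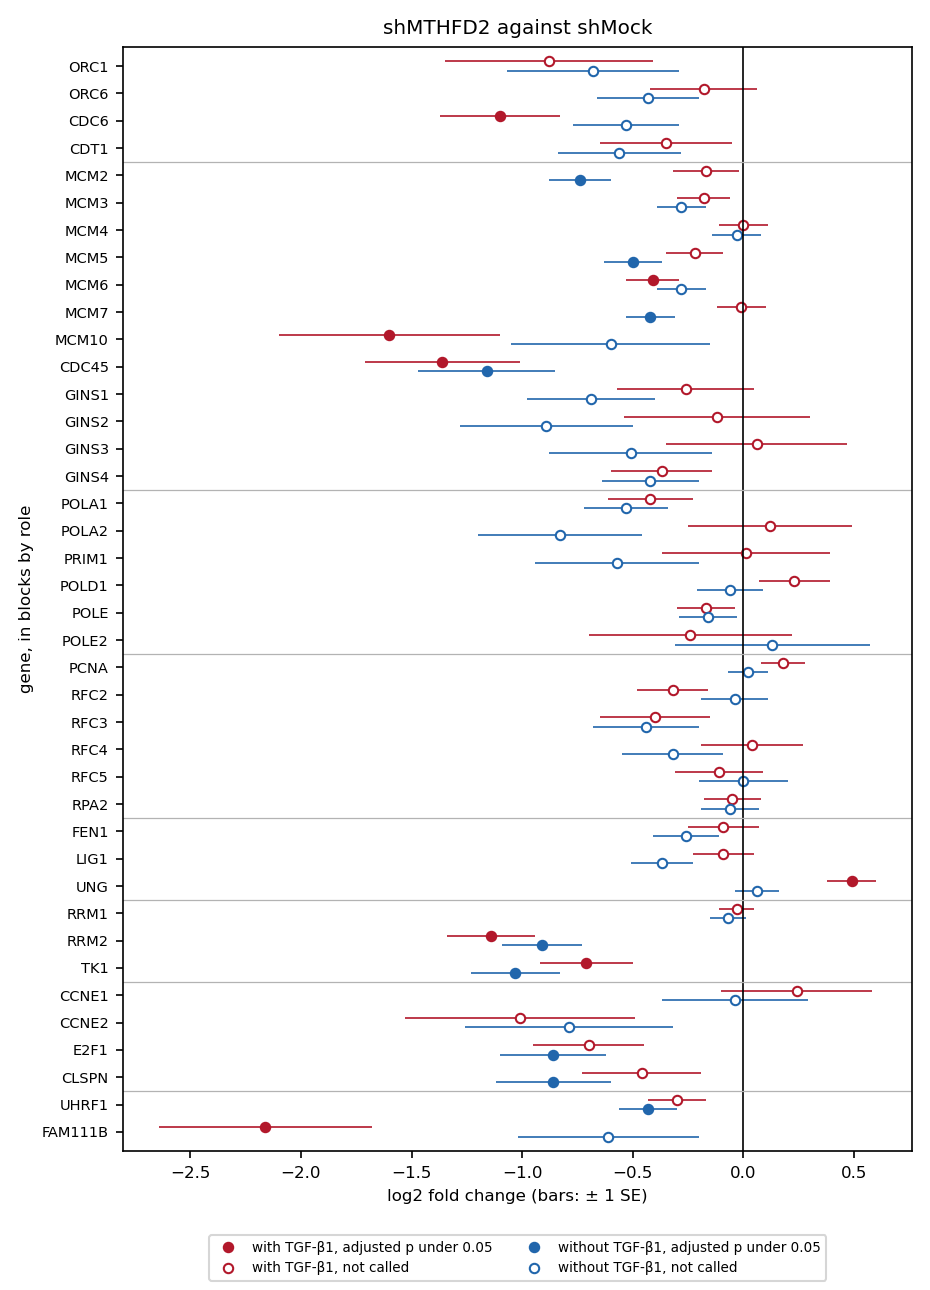
Log2 fold change (horizontal axis) of each gene for shMTHFD2 against shMock, with TGF-β1 and without it; bars are 1 SE either way and filled points have adjusted p under 0.05. Most points lie left of 0 in both conditions, with 32 of the 40 genes below 0 with TGF-β1 and 37 without it, and UNG is the filled point right of 0.

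TGF-β1 lowered 14 of the 40 genes in shMock cells and raised 0 by edgeR. The response of all genes was broad, with 35.4% called, 18.1% lower and 17.3% higher, so the 35.0% of replication genes that fell stands against 18.1%. The sign was negative for 37 of the 40 (52.6% of all genes), with a median of -0.40 against -0.02, and 20 had an unadjusted p under 0.05 (against 44.3% of all genes). Libraries did not overlap for 30 in the lower direction (36.1% of all genes) and 0 in the higher (31.9%). This comparison shares its shMock control libraries with the knockdown comparison without TGF-β1, and its shMock TGF-β1 libraries with the knockdown comparison with it.

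Calls came from 5 of the 8 role blocks. RRM2 had 12.2 and 9.16 CPM in shMock TGF-β1 libraries, against 21.6 and 25.6 CPM in shMock control libraries (log2 fold change -1.14, SE 0.18, adjusted p = 0.000165). ORC1, the largest subunit of the origin recognition complex, had 1.28 and 1.26 CPM with TGF-β1 and 3.32 and 2.71 CPM without (-1.25, SE 0.41, adjusted p = 0.0281). GINS2, a helicase cofactor, had 3.14 and 1.26 CPM with TGF-β1 and 5.20 and 4.48 CPM without (-1.13, SE 0.40, adjusted p = 0.0404). These 3 had the lowest fold changes of the 14, and none of their groups overlapped. CDC45 (-1.02, adjusted p = 0.0176) and CDC6 (-0.80, adjusted p = 0.0189) fell too.

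Smaller falls were found in the ring subunits and the elongation factors. PCNA had 55.5 and 53.8 CPM with TGF-β1, against 65.8 and 66.5 CPM without (log2 fold change -0.28, SE 0.10, adjusted p = 0.0356). MCM3 had 30.9 and 30.6 CPM with TGF-β1 and 34.0 and 42.3 CPM without (-0.31, SE 0.11, adjusted p = 0.0489), and MCM4 had 47.9 and 41.2 CPM with it and 60.3 and 59.2 CPM without (-0.42, SE 0.11, adjusted p = 0.00807). UNG had 21.2 and 21.6 CPM with TGF-β1 and 29.2 and 28.1 CPM without (-0.42, SE 0.11, adjusted p = 0.00581). The remaining calls were MCM2 (-0.60), MCM6 (-0.49), GINS4 (-0.60), the ligase gene LIG1 (-0.48) and TK1 (-0.59), with adjusted p between 0.00328 and 0.0497. None of the 6 polymerase and primase genes or the 4 G1/S genes was called in the fit reported, and their medians were -0.30 and -0.42. POLE was called lower with library totals, upper-quartile factors and GC and length offsets, and POLD1 with library totals.

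RRM2 and UNG kept their calls whichever library was left out, with adjusted p up to 0.00394 and 0.0468. Without shMock control replicate 2 the lower calls were 4 (MCM4, LIG1, RRM2 and UNG), without shMock TGF-β1 replicate 2 they were 5 (MCM2, MCM6, CDC6, RRM2 and UNG), and without replicate 1 of either group they were 9. The highest adjusted p over those fits was 0.575 for MCM3, 0.284 for GINS2, 0.272 for GINS4, 0.168 for PCNA, 0.130 for ORC1, 0.0828 for MCM4 and between 0.0688 and 0.197 for the other 6. DESeq2 called 8 genes lower. Library totals as the scale gave 23. That scale put the median of all genes at -0.12 for TGF-β1 in shMTHFD2 and -0.16 in shMock, where TMM gave -0.01 and -0.02, and the median of the 40 at -0.34 and -0.54. Exons of genes on the opposite strand overlap GINS2, GINS4 and LIG1.

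In shMTHFD2 cells TGF-β1 lowered 8 of the 40 genes and raised 0 by edgeR. Of all genes 23.8% were called, 11.0% lower and 12.8% higher, so the 20.0% of replication genes that fell stands against 11.0%. The sign was negative for 33 of the 40 (50.7% of all genes), with a median of -0.23 against -0.01, and 12 had an unadjusted p under 0.05 (30.0%, against 34.2%). Libraries did not overlap for 21 in the lower direction (30.4%) and for 2 in the higher (29.2%), which were MCM7 and POLA2. MCM7 had 67.0 and 67.5 CPM with TGF-β1 and 57.0 and 53.0 CPM without (0.29, SE 0.11, adjusted p = 0.0633). It was the 1 gene called higher with no filter, with the 2 groups alone and with GC and length offsets.

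RRM2 fell the most firmly, to 3.97 and 5.73 CPM in shMTHFD2 TGF-β1 libraries, against 12.2 and 13.0 CPM in shMTHFD2 control libraries (log2 fold change -1.37, SE 0.20, adjusted p = 9.0e-05). CDC6 had 2.24 and 2.74 CPM with TGF-β1 and 5.41 and 7.58 CPM without (-1.38, SE 0.26, adjusted p = 0.00112). MCM6 had 18.3 and 18.1 CPM with it and 27.8 and 28.1 CPM without (-0.62, SE 0.12, adjusted p = 0.000855). In each of these 3 the libraries with TGF-β1 were all below those without, and the calls held whichever library was left out, with adjusted p up to 0.00149, 0.0205 and 0.00924.

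The other 5 calls depended on single libraries. FAM111B had 0.561 and 0.812 CPM with TGF-β1 and 1.39 and 3.35 CPM without (log2 fold change -1.77, SE 0.48, adjusted p = 0.0133). ORC1 had 0.662 and 0.710 CPM with it and 1.29 and 2.48 CPM without (-1.44, SE 0.45, adjusted p = 0.0287). RFC2, a clamp loader subunit, had 8.15 and 8.42 CPM with TGF-β1 and 12.0 and 12.5 CPM without (-0.56, SE 0.15, adjusted p = 0.0133), and MCM4 had 39.2 and 49.9 CPM with it and 59.9 and 57.4 CPM without (-0.40, SE 0.11, adjusted p = 0.0160). CDC45 had 1.17 and 0.913 CPM with it and 2.26 and 2.63 CPM without (-1.22, SE 0.35, adjusted p = 0.0176). Without shMTHFD2 control replicate 2 the lower calls were 4 (MCM4, MCM6, CDC6 and RRM2), and without shMTHFD2 TGF-β1 replicate 1 they were 4 (MCM6, CDC6, CDC45 and RRM2). The highest adjusted p over those fits was 0.285 for ORC1, 0.229 for FAM111B, 0.195 for MCM4, 0.108 for CDC45 and 0.0722 for RFC2.

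The TGF-β1 comparisons of the 2 lines share no library. Both lowered CDC45, CDC6, MCM4, MCM6, ORC1 and RRM2, 6 genes that make up 75.0% of the 8 in shMTHFD2 and 42.9% of the 14 in shMock. The log2 fold change was below 0 in both lines for 32 of the 40 (80.0%, against 38.9% of all genes). Across the 40 genes the fold changes of the lines correlated at Pearson's r 0.53 and Spearman's rho 0.51, below the 0.75 and 0.69 across all genes.

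**Figure D5:**
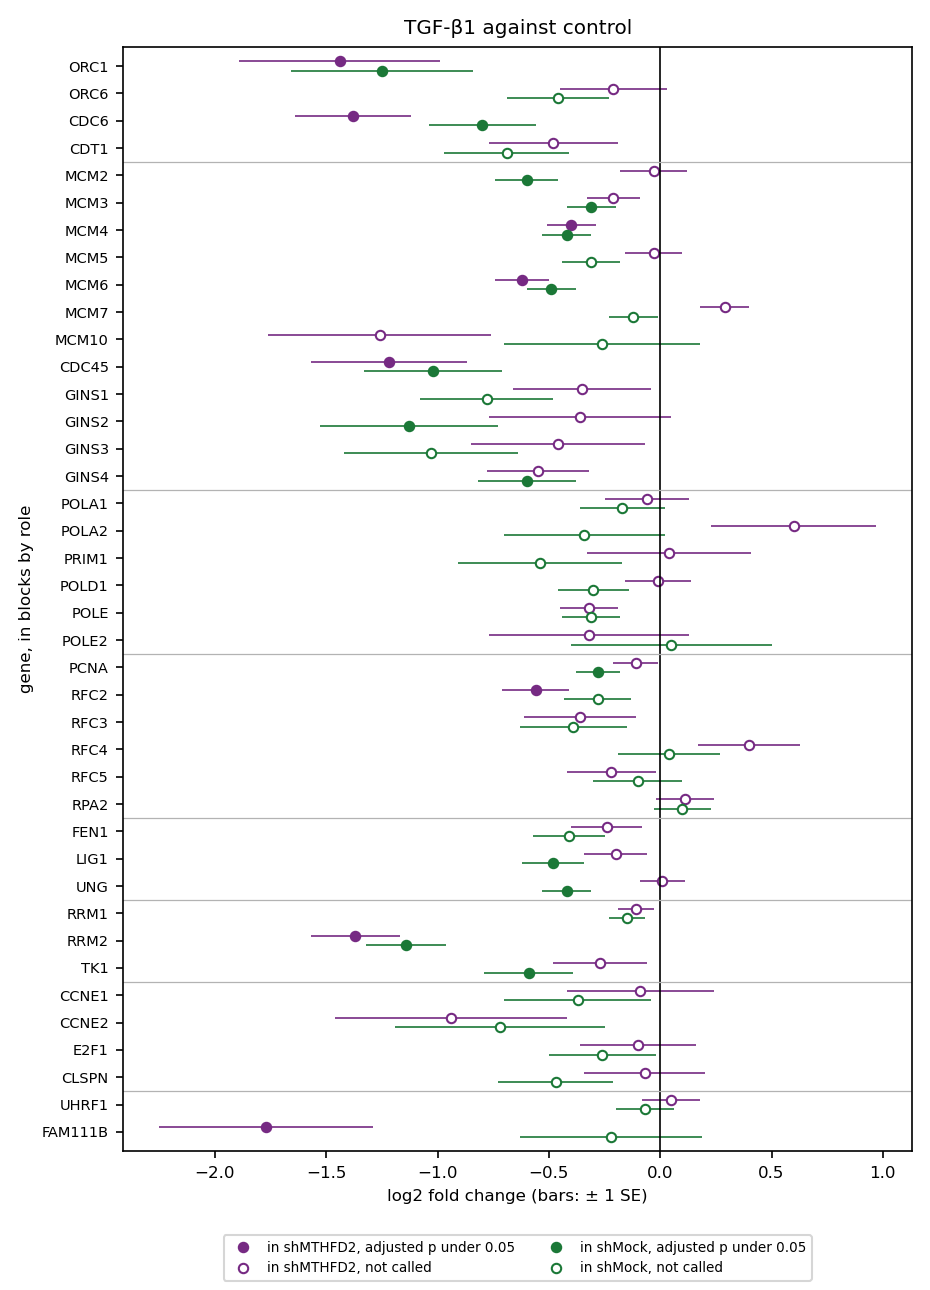
Log2 fold change (horizontal axis) of each gene for TGF-β1 against control, in shMTHFD2 and in shMock cells; bars are 1 SE either way and filled points have adjusted p under 0.05. CDC6, CDC45, MCM4, MCM6, ORC1 and RRM2 are filled and left of 0 in both lines, and FAM111B is filled in shMTHFD2 alone, at -1.77 against -0.22 in shMock.

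Whether the TGF-β1 response differed between the lines was tested as an interaction, which is the response in shMTHFD2 minus that in shMock and equally the knockdown difference with TGF-β1 minus that without. None of the 40 genes was called by edgeR or by DESeq2, and 12 of all tested genes were by edgeR (0.0889%, of which 0.0519% lower and 0.0371% higher). With each tool 4 of the 40 had an unadjusted p under 0.05, against 12.7% of all tested genes by edgeR. These were MCM2 (0.57, SE 0.20, edgeR adjusted p = 0.283), MCM7 (0.40, SE 0.15, edgeR adjusted p = 0.302), UNG (0.43, SE 0.15, edgeR adjusted p = 0.264) and FAM111B (-1.55, SE 0.63, edgeR adjusted p = 0.330). A call in 1 line or condition and not in the other is therefore not shown to be a difference between them for any of the 40.

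Other genes of the same processes were counted beside the 40. Of all tested genes, 8.23% fell and 4.83% rose with the knockdown under TGF-β1, and 8.19% fell and 3.25% rose with it alone. With TGF-β1, 11.0% fell and 12.8% rose in shMTHFD2, and 18.1% fell and 17.3% rose in shMock, so each list's shares stand against these.

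Of 38 further replication factors, 2 fell with the knockdown under TGF-β1 (5.26%) and 1 without it (2.63%). With TGF-β1, 3 fell and 1 rose in shMTHFD2 (7.89% and 2.63%), and 5 fell and 1 rose in shMock (13.2% and 2.63%). These shares lie below those of all tested genes, and the medians were -0.10, -0.09, -0.19 and -0.28. ASF1B, a histone chaperone of replicating chromatin, fell in all 4 comparisons (log2 fold changes -1.29 and -1.31 with the knockdown, -1.06 in shMTHFD2 and -1.08 in shMock with TGF-β1). It had 1.17 and 1.22 CPM in shMTHFD2 TGF-β1, 2.71 and 3.15 CPM in shMock TGF-β1, 2.82 and 2.17 CPM in shMTHFD2 control and 5.20 and 7.24 CPM in shMock control libraries, and leaving out 1 library took its adjusted p to between 0.0974 and 0.201. EXO1, an exonuclease of mismatch repair and end resection, was the other gene lower with the knockdown under TGF-β1 (-1.31, edgeR adjusted p = 0.0308). The primase subunit PRIM2 (-0.77) and the chromatin assembly subunit CHAF1A (-0.44) fell with TGF-β1 in shMock, and geminin (GMNN, -0.50), which holds CDT1 in check, fell in shMTHFD2. The genes that rose were POLD4, a small subunit of polymerase δ, in shMTHFD2 (0.66) and MCMBP in shMock (0.23).

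These counts moved with single libraries. The knockdown count with TGF-β1 was 0 without any of the 4 TGF-β1 libraries, and that without TGF-β1 was 0 without replicate 2 of either control group and 2 without shMock control replicate 1. For TGF-β1 in shMTHFD2 the lower calls were 0 without either shMTHFD2 control library and 1 without either shMTHFD2 TGF-β1 library, and in shMock they were 0 without shMock control replicate 2 and 2 without shMock TGF-β1 replicate 2. Over the other alternatives the lower calls with TGF-β1 ran between 0 (DESeq2) and 7 (library totals) in shMTHFD2 and between 3 and 12, with the same settings, in shMock. EXO1, PRIM2, CHAF1A, GMNN, POLD4 and MCMBP each lost the call in at least 1 of the fits without 1 library. CHAF1A and GMNN were also not called by DESeq2.

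Of 17 further nucleotide supply genes, 4 fell and 1 rose with the knockdown under TGF-β1 (23.5% and 5.88%), and 5 fell and 1 rose without it (29.4% and 5.88%). With TGF-β1, 4 rose in shMTHFD2 (23.5%) and 0 fell, and 6 fell and 4 rose in shMock (35.3% and 23.5%). The medians were -0.06, -0.37, -0.06 and -0.02. SAMHD1, which breaks down deoxynucleotides, fell with the knockdown in both conditions (log2 fold changes -0.81 and -0.95, adjusted p = 2.3e-05 and 6.1e-06): it had 86.7 and 83.7 CPM in shMTHFD2 TGF-β1, 148 and 151 CPM in shMock TGF-β1, 73.0 and 81.5 CPM in shMTHFD2 control and 149 and 148 CPM in shMock control libraries. DUT, the dUTPase that keeps uracil out of DNA, fell as well (-0.48 and -0.51), as did CTPS1, which makes CTP, with TGF-β1 (-0.56) and NME1, a nucleoside diphosphate kinase, without it (-0.48). RRM2B, the ribonucleotide reductase subunit used outside S phase, was the gene that rose (0.28 and 0.36, adjusted p = 0.0315 and 0.00965), opposite in sign to RRM2.

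With TGF-β1 this list split by gene. In shMock the thymidylate enzymes TYMS (log2 fold change -0.86, adjusted p = 0.00104) and DTYMK (-0.93, adjusted p = 0.000436) fell, and so did the cytosolic folate enzyme SHMT1 (-0.86, adjusted p = 0.000741). CTPS1 rose in both lines (1.80 in shMTHFD2 and 2.22 in shMock, adjusted p = 2.9e-10 and 2.4e-11), SHMT2, a mitochondrial folate enzyme, did as well (1.05 and 0.85), and NME1 rose in shMTHFD2 (0.62). The calls of SAMHD1 and CTPS1, and those named here with TGF-β1, held whichever library was left out. DUT, NME1 and RRM2B lost their knockdown calls in some of those fits, with adjusted p up to 0.278, 0.441 and 0.252. The lower calls with the knockdown under TGF-β1 were 2 without shMTHFD2 TGF-β1 replicate 1 or 2 or shMock TGF-β1 replicate 2 and 2 with library totals as the scale, and those without TGF-β1 were 2 without replicate 2 of either control group and 3 with library totals. The count of 0 lower in shMTHFD2 was also 0 by DESeq2, with 2 at an unadjusted p under 0.05 by edgeR, and up to 2 in other settings. In shMock 2 of the 4 genes that rose, CTPS1 and SHMT2, did so with library totals.

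Of 24 tested regulators of the E2F and RB pathway, 7 fell and 1 rose with the knockdown under TGF-β1 (29.2% and 4.17%), and 6 fell and 1 rose without it (25.0% and 4.17%). TGF-β1 lowered 5 and raised 4 in each line (20.8% and 16.7%), and the medians were -0.05, -0.12, -0.10 and -0.10. CCND1, the cyclin D1 gene that starts RB phosphorylation, had 142 CPM in both shMTHFD2 TGF-β1 libraries, 281 and 249 CPM in shMock TGF-β1, 214 and 216 CPM in shMTHFD2 control and 415 and 424 CPM in shMock control libraries. It fell with the knockdown (log2 fold changes -0.90 and -0.96, adjusted p = 1.0e-05 and 5.4e-06) and with TGF-β1 (-0.60 in shMTHFD2 and -0.66 in shMock, adjusted p = 4.5e-05 and 1.1e-05). MYBL2, itself an E2F target, fell with the knockdown at -1.08 and -1.19 (adjusted p = 0.0102 and 0.00447) and MYC, a driver of growth, at -0.79 and -0.88 (adjusted p = 0.00515 and 0.00201), and RBL1, the RB relative p107, fell under TGF-β1 (-0.87). TFDP2, a partner of E2F factors, was the gene that rose (0.35 and 0.42).

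With TGF-β1, E2F7, an E2F that represses transcription, rose in both lines (log2 fold changes 1.35 in shMTHFD2 and 1.24 in shMock, adjusted p = 1.5e-08 and 3.2e-08), and FOXM1, a driver of mitotic genes, fell 1.73-fold in shMTHFD2 and 1.99-fold in shMock (adjusted p = 0.000970 and 7.5e-05). RBL1 fell in shMTHFD2 (-0.70). The other genes that rose were E2F3 (0.39 in shMTHFD2 and 0.65 in shMock), the cyclin D kinase gene CDK6 (0.41 and 0.99), CDK4 in shMTHFD2 (0.43) and RB1 in shMock (0.51). With the knockdown, E2F3 (-0.57), RB1 (-0.47) and CDK6 (-0.32) fell under TGF-β1, and CDK4 (-0.39) fell without it. That fall of CDK6 was not called with library totals or upper-quartile factors. CCND1, MYC, RB1, E2F7, the TGF-β1 calls of FOXM1 and CDK4, and those of E2F3 and CDK6 in shMock held whichever library was left out. The calls of MYBL2, RBL1 and TFDP2 each failed in at least 1 of those fits. So did the TGF-β1 calls of E2F3 and CDK6 in shMTHFD2 and the knockdown calls of E2F3, CDK4 and CDK6. The lower calls with the knockdown under TGF-β1 were 3 without shMTHFD2 TGF-β1 replicate 2 and 4 without shMock TGF-β1 replicate 1, and those without TGF-β1 were 2 without replicate 2 of either control group. In shMTHFD2 the genes that rose with TGF-β1 were 2 without shMTHFD2 control replicate 1, and in shMock library totals gave 9 lower.

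Of 7 genes for CDK inhibitors, the brakes on the G1/S kinases, CDKN2B was called lower with the knockdown under TGF-β1 (14.3%), and CDKN2A and CDKN2B were without it (28.6%). With TGF-β1, CDKN2B rose and CDKN1C fell in each line (14.3% each), and the medians were -0.06, -0.26, 0.03 and -0.14. CDKN2B, which encodes p15 and is a known TGF-β target, stood at log2 fold changes of -0.50 with TGF-β1 and -0.54 without it for the knockdown (adjusted p = 0.00164 and 0.00228), and of 2.44 in shMTHFD2 and 2.40 in shMock for TGF-β1 (adjusted p = 6.2e-11 and 4.2e-11). It had 162 and 148 CPM in shMTHFD2 TGF-β1, 213 and 227 CPM in shMock TGF-β1, 29.4 and 28.0 CPM in shMTHFD2 control and 44.9 and 38.4 CPM in shMock control libraries. CDKN1C, which encodes p57, fell with TGF-β1 at -0.79 in shMTHFD2 and -1.07 in shMock (adjusted p = 0.00460 and 0.000341). The calls of CDKN2B, and that of CDKN1C in shMock, held whichever library was left out, while CDKN1C in shMTHFD2 reached adjusted p 0.0653 and CDKN2A without TGF-β1 0.474. Whether an inhibitor rose with the knockdown under TGF-β1 depended on the setting. None did in the fit reported, where CDKN1A stood at 0.24 (edgeR adjusted p = 0.0568) and CDKN1B at 0.27 (edgeR adjusted p = 0.0826). Library totals called both higher, DESeq2, no filter and the 2 groups alone called CDKN1A, and GC and length offsets called CDKN1B.

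Of 29 tested mitosis genes, 10 fell with the knockdown under TGF-β1 (34.5%) and 6 without it (20.7%), and TGF-β1 lowered 9 in shMTHFD2 (31.0%) and 10 in shMock (34.5%). Their median log2 fold changes were -0.71, -0.58, -0.61 and -0.47, further from 0 than the -0.20, -0.44, -0.23 and -0.40 of the 40 replication genes, a difference that was not tested. The largest falls with the knockdown under TGF-β1 were those of UBE2C (-1.81), NUF2 (-1.59) and BIRC5 (-1.22), and without it those of BIRC5 (-1.26), CDC20 (-1.23) and the proliferation marker MKI67 (-0.90). With TGF-β1 they were NUF2 (-1.36), ANLN (-1.21) and the spindle factor TPX2 (-1.20) in shMTHFD2, and CDC20 (-0.96), TPX2 (-0.90) and ANLN (-0.89) in shMock. ANLN, the anillin of the cleavage furrow, fell in all 4 comparisons and kept each call whichever library was left out; it had 6.73 and 8.42 CPM in shMTHFD2 TGF-β1, 19.6 and 15.3 CPM in shMock TGF-β1, 17.9 and 17.2 CPM in shMTHFD2 control and 30.9 and 33.8 CPM in shMock control libraries. TPX2 kept its TGF-β1 calls too, and the calls of UBE2C, NUF2, BIRC5, CDC20 and MKI67 named here each failed in at least 1 of those fits.

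The mitosis count with the knockdown under TGF-β1 was 1 without shMock TGF-β1 replicate 1 and 5 without shMTHFD2 TGF-β1 replicate 1, and DESeq2 gave 6. That without TGF-β1 was 1 without shMTHFD2 control replicate 2, 2 without shMock control replicate 2 and 3 without replicate 1 of either group. For TGF-β1 in shMTHFD2 it was 5 without shMTHFD2 control replicate 2. In shMock it was 4 without shMock TGF-β1 replicate 2, 4 without shMock control replicate 2 and 5 without shMock control replicate 1, and DESeq2 gave 5.

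Of 19 checkpoint and fork repair genes, 3 fell with the knockdown under TGF-β1 (15.8%; CHEK1 -0.68, BRCA1 -0.95 and FANCD2 -0.96) and 1 without it (5.26%; FANCI -0.71). With TGF-β1, FANCD2 (-1.26) and the kinase gene CHEK2 (-1.02) fell in shMTHFD2 (10.5%). In shMock 4 fell, led by CHEK2 (-1.14), FANCI (-0.77) and FANCD2 (-0.77), and CHEK1 rose (0.40), which makes 21.1% and 5.26%. The medians were -0.22, -0.21, -0.20 and -0.06. The knockdown calls of CHEK1 and FANCI, and those of CHEK2 and FANCI in shMock, held whichever library was left out. The knockdown calls of BRCA1 and FANCD2 each failed in at least 1 of those fits. So did the TGF-β1 calls of CHEK1 and FANCD2 in shMock and of CHEK2 and FANCD2 in shMTHFD2. The rise of CHEK1 was also not called with library totals, upper-quartile factors or GC and length offsets. The knockdown count with TGF-β1 was 1 without replicate 1 of either TGF-β1 group, and the lower counts with TGF-β1 were 0 without shMTHFD2 control replicate 2 and 1 without shMTHFD2 TGF-β1 replicate 1 in shMTHFD2, and 2 without shMock control replicate 2 in shMock. No gene of these lists was called in the interaction by edgeR.

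Several of these genes share exon sequence with others. The overlap is on the opposite strand for ASF1B, CHAF1A, SAMHD1, DUT, TYMS, SHMT2, CCND1, RBL1, FOXM1, CDK4, CDK6, CDKN1A, CDKN2A, NUF2, ANLN, CHEK2, FANCD2 and FANCI, on the same strand for POLD4, NME1 and CHEK1, and on both for SHMT1 and BRCA1.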

How the data were processed

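RNA was sequenced in 8 libraries, on an Illumina NovaSeq 6000 after an mRNA kit, per the labels' protocols. The deposited table, although named for FPKM, holds whole-number counts per gene, made by the authors; STAR 2.7.1a, DESeq2 1.32.0 and GRCh38 are named in the submitters' processing notes, and the sources used here name no counter, annotation or use of strand. Without strand, overlapping antisense genes cannot be told apart. Symbols came from a supplied table (60437 IDs), positions and exon overlaps from GENCODE release 29, and promoters from RefSeq.

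Testing took the genes that averaged 1 CPM or more over the libraries. It used edgeR 4.0.16 (R 4.3.3), its quasi-likelihood test and TMM factors, all 8 libraries in 1 fit with a mean per group and 4 residual degrees of freedom, at a Benjamini-Hochberg adjusted p of 0.05 over 13493 genes. The SE is the fold change over the root of its F and is approximate. Levels are CPM on TMM-scaled totals. The floor of 3 counts covers only counting error. Replicates differed by more than that: chi-square per degree of freedom between them was 6.47 to 11.2.

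The 40 genes and all lists were chosen with earlier results of these data known. Values per library are given for genes called in a knockdown comparison or the interaction, the 3 highest and 3 lowest called fold changes of each TGF-β1 comparison, and the most expressed gene of each role; each other list gives, per comparison, up to 3 called genes of largest fold change. POLA2, RRM2B, TFDP2, MCMBP, E2F3, RB1, CDK4, CDKN1A and CDKN1B, and other comparisons of genes the rule names, were added after their values were seen. Alternatives were other scalings, DESeq2 1.42.0, other filters, the 2 groups alone, a replicate block, GC and length offsets, and leaving out each library.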

Additional observations from a re-analysis of the deposited data

How the results depend on the processing

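The 5 median log2 fold changes of the 40 genes kept their sign under every alternative run, and no call changed sign. With library totals as the scale, the genes called lower were 4 with the knockdown under TGF-β1, 5 with it alone and 23 with TGF-β1 in shMock; DESeq2 gave 4 under TGF-β1 and 8 for TGF-β1 in shMock, and a fit of the 2 groups alone gave 3 under TGF-β1. For TGF-β1 in shMTHFD2, 1 gene was called higher with no filter, with the 2 groups alone and with GC and length offsets, against 0. All genes called in the interaction numbered 105 with DESeq2, 321 with no filter and 21 with GC and length offsets, against 12. Leaving out 1 library gave 2 to 7 lower calls with the knockdown under TGF-β1, 1 to 9 without it, 4 to 17 for TGF-β1 in shMock and 4 to 8 (0 to 1 higher) in shMTHFD2; over all genes it gave 841 to 1822, 585 to 1681 and, for the interaction, 3 to 192. The cause was not tested. With a replicate block the lower calls were 7, 7, 14 and 8, and those of all genes 1735, 1530, 4753, 3194 and 13. Differences between replicates correlated at -0.0245 to 0.0808 between groups, so no shared effect of the replicate number was seen. Whether the numbers stand for a pairing of cultures cannot be read from this. The 40 genes had 39 calls; 47 of 351 checks of them under the other alternatives lost the call, and 93 of 312 checks without 1 library. At these depths genes near 1 CPM, such as MCM10 with 7 and 22 counts, are measured with wide error.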
